A study of Mus musculus with 4 samples.

Results

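The goblet cell mucins and their mucus programme were followed through whole lung RNA as 10 genes. These were the gel-forming mucins Muc5ac and Muc5b, the membrane mucins Muc1 and Muc4, the mucus proteins Agr2, Tff2 and Itln1, the transcription factors Spdef and Foxa3, and the anion exchanger Slc26a4. They were taken by name from 41079 genes with deposited counts, and all 10 were found. The study asked how loss of Rab44, a large Rab GTPase, bears on allergic airway inflammation, using mice made allergic to ovalbumin (OVA). Wild type (WT) and Rab44-knockout (Rab44-KO) mice were each sampled normal and OVA-induced, with 1 library per condition, and the number of mice behind a library is not given in the sources used here. The in vivo animals are described as female littermates of 8 to 14 weeks on a C57BL/6 background, with Rab44 deleted by CRISPR/Cas9. The OVA-induced mice were sensitized on days 0, 7 and 14 by intraperitoneal OVA in alum and then challenged with 100 μg OVA in 50 μL intranasally for 4 days, and lungs were taken on day 21. The normal mice are labelled as untreated. Without replicates no test between conditions was possible, so every ratio sets one library against another, and its exact 95% Clopper-Pearson interval covers counting error only.

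Airway mucus is a gel of large, heavily O-glycosylated mucin polymers made by secretory cells, which take on a goblet cell form when type 2 cytokines act on the airway epithelium. Muc5b is the main mucin of the resting mouse airway, whereas Muc5ac is the inducible one that marks goblet cell metaplasia in allergic airways. Spdef and Foxa3 promote goblet cell differentiation, Agr2 is a protein disulfide isomerase needed for mucin assembly, and Tff2 and Itln1 are proteins released with mucus.

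Each library held 18112901 to 19910236 counts, so that 3 counts, the floor used for a count of 0, equal 0.154 to 0.164 CPM (counts scaled to a common library total). Rab44 had 251 and 810 counts in the normal and OVA-induced WT libraries, and 1 and 0 in those of Rab44-KO mice, as the labels would have it. The lung markers Scgb1a1 of club cells and Sftpc of alveolar type 2 cells were abundant throughout, with at least 320451 and 181126 counts. Below, counts are given in pairs, first WT and then Rab44-KO.

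After OVA, most mucus genes rose in WT lungs, and Slc26a4 alone rose in Rab44-KO lungs. In WT, 8 of the 10 were over 2-fold higher after OVA and none was over 2-fold lower, with a median log2 ratio of 1.92. Of 19023 genes that reached 10 counts in either library, 8.99% rose and 5.20% fell by this measure, and the median log2 ratio was 0.00. In Rab44-KO lungs 8 of the 10 reached this minimum, of which Slc26a4 was over 2-fold higher, Tff2 over 2-fold lower and 6 lay within 2-fold. Their median log2 ratio was -0.21, against -0.01 for 19073 genes, of which 10.3% passed 2-fold, 6.44% upward and 3.85% downward. Foxa3 and Itln1 reached the minimum through the OVA-induced WT library alone, where they were high and so had to differ. Of the other 8 genes, 6 were over 2-fold higher after OVA in WT, with a median log2 ratio of 1.58. A gene is said to have risen or fallen only where it passed this 2-fold limit.

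Read across genotype, OVA-induced Rab44-KO lungs had 8 of the 10 over 2-fold below WT and none over 2-fold above. The median log2 ratio of Rab44-KO to WT was -3.02. Without Foxa3 and Itln1, 6 of 8 were over 2-fold below WT, with a median of -2.83. Over 19259 genes the median was -0.02, with 7.34% past 2-fold downward and 8.40% upward. In normal lungs none of the 8 that reached the minimum differed over 2-fold between genotypes, where 4.77% of 18718 genes did so (2.77% upward), and their median log2 ratio was 0.08. These comparisons share libraries and are not independent of each other. Whole lung RNA cannot tell fewer goblet cells from less of each transcript per cell.

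**Figure D1:**
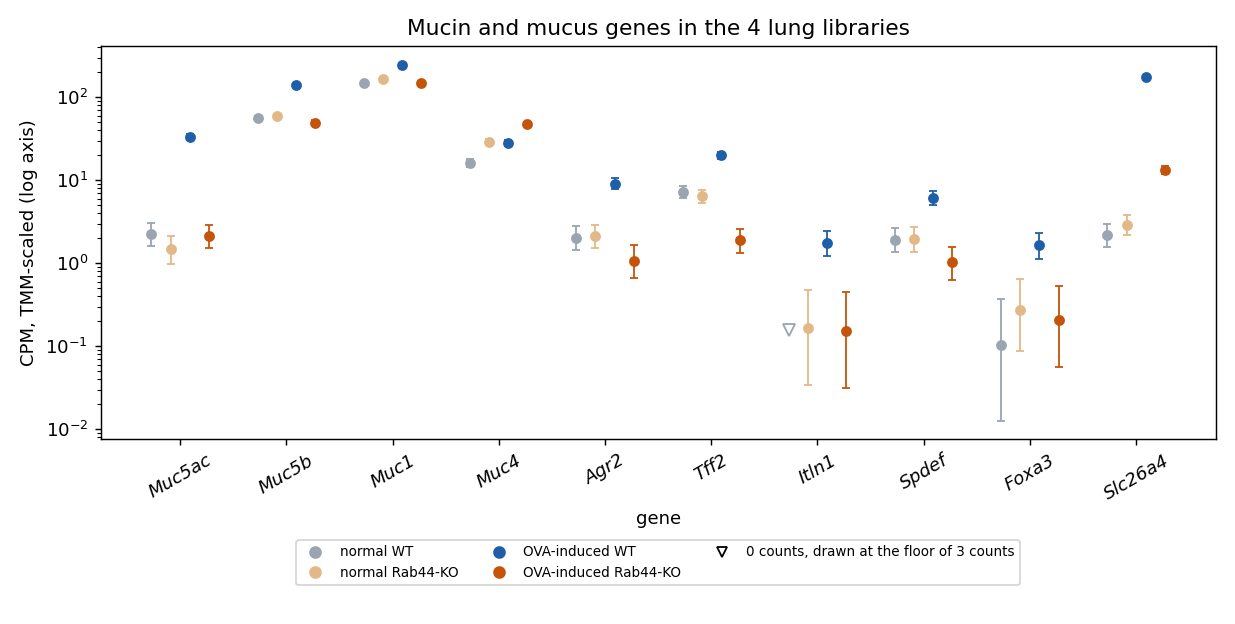
Levels of the 10 mucus genes in CPM, scaled between libraries and drawn on a log axis, with 1 point per library and exact 95% Poisson intervals. For 9 genes the OVA-induced WT library is the highest, whereas Muc4 is highest in the OVA-induced Rab44-KO library at 47.5 CPM, and the open triangle for Itln1 marks 0 counts.

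**Figure D2:**
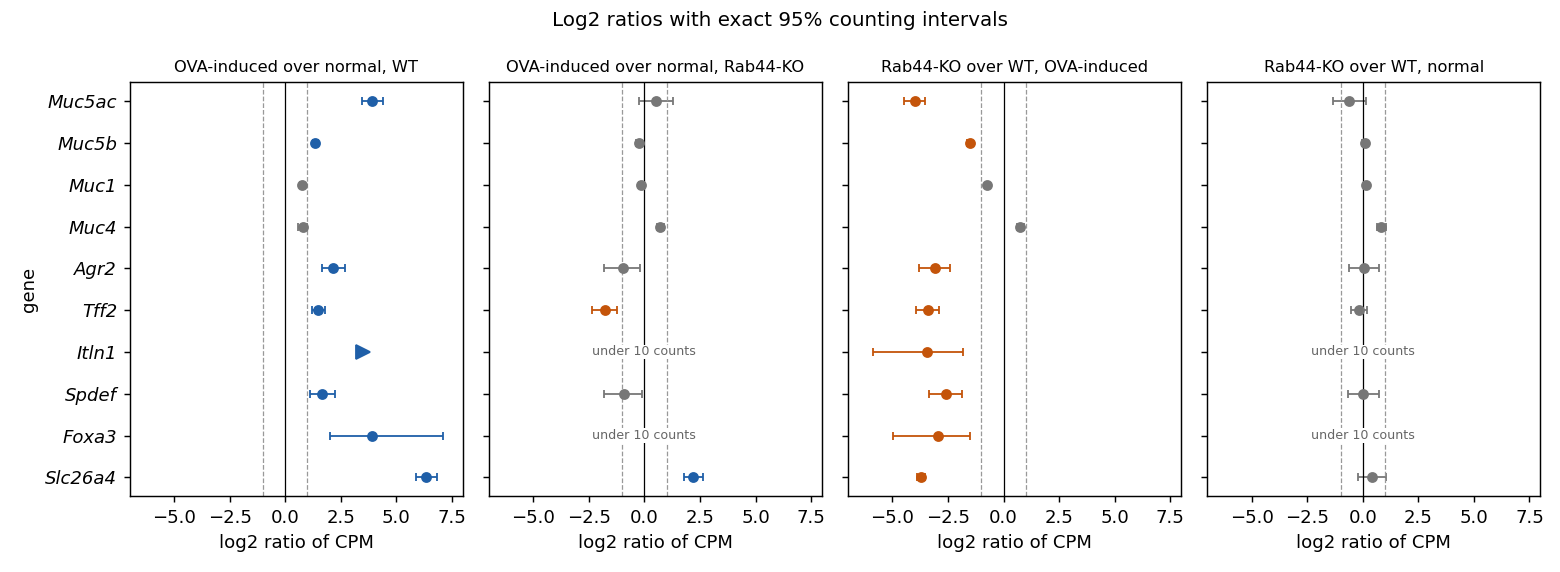
Log2 ratios of CPM for the 4 comparisons, with exact 95% Clopper-Pearson intervals as bars, dashed lines at 2-fold, and blue and orange marks for genes over 2-fold higher and lower. The right-pointing triangle for Itln1 is a lower bound from 0 counts in normal WT lungs, and genes under 10 counts in both libraries carry no point. In WT after OVA 8 points lie beyond the upper line, and for Rab44-KO over WT after OVA 8 lie beyond the lower line.

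The bases before the transcription start are shown because several of the genes moved together in WT lungs. RefSeq promoter sequences on GRCm38.p6 matched 7 of the 10 genes, all but Muc5ac, Muc5b and Tff2, and the 250 bases upstream of each start were searched on both strands. The stretches of all 5 matched genes that rose in WT lungs (Slc26a4, Agr2, Spdef, Foxa3 and Itln1), and of Muc4, whose levels ran differently, are given 5′ to 3′. Capitals mark ATCCTG or its reverse complement (letters bound by ETS factors such as Spdef), TATTTAC or its reverse complement (forkhead-type letters) and the TATA box letters TATAAA.
Slc26a4 (chr12:31559985-31560234, minus strand): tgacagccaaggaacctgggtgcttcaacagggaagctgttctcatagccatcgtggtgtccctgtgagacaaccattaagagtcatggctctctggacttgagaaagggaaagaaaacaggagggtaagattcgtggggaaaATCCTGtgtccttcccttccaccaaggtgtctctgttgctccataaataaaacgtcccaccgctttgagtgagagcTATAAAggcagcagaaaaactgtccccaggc
Agr2 (chr12:35992675-35992924, plus strand): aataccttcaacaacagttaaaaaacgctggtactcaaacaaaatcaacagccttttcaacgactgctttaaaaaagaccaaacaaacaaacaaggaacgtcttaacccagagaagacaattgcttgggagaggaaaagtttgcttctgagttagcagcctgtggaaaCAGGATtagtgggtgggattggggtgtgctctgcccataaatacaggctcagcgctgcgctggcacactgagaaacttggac
Spdef (chr17:27728952-27729201, minus strand): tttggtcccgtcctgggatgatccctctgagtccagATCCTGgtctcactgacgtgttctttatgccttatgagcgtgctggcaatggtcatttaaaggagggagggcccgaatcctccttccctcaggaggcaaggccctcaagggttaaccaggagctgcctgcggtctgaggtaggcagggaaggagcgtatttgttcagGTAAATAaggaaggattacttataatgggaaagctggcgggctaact
Foxa3 (chr7:19023540-19023789, minus strand): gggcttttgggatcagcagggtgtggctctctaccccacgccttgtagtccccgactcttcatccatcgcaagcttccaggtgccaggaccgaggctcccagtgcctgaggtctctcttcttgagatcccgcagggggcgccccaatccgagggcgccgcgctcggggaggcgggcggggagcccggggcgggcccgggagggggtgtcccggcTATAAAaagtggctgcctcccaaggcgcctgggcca
Itln1 (chr1:171535295-171535544, minus strand): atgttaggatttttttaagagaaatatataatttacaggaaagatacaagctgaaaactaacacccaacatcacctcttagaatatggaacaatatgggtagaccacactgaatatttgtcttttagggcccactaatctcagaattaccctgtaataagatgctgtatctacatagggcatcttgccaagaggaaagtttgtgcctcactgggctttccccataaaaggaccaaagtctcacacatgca
Muc4 (chr16:32735636-32735885, plus strand): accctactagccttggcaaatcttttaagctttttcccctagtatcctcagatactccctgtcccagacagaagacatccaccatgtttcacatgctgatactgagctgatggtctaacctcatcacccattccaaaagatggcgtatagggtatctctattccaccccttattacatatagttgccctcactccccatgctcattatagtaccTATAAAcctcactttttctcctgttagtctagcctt

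ATCCTG occurred in 3 of the 7 promoters, those of Slc26a4, Agr2 and Spdef but not Foxa3 or Itln1, which also rose, and in 13.6% of 32851 promoter stretches of the same length. The shorter letters GGAT, which lie within the reverse complement of ATCCTG, occurred in 6 of the 7 and in 74.1% of all stretches. The TATA box letters were in 4 of the 7, those of Slc26a4, Muc4, Foxa3 and Muc1, against 12.4% of all stretches. TATTTAC occurred in that of Spdef alone and in 2.73% of all stretches. The forkhead letters TGTTTAC and the STAT6 palindrome, TTC and GAA set 4 bases apart, were in none of the 7 and in 3.17% and 5.85% of all stretches. Such a match is a description of letters and does not show binding.

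Muc5ac and Muc5b lie in tandem on the plus strand of chromosome 7 of GRCm38, Muc5ac from 141788972 to 141819231 and Muc5b from 141839070 to 141873084, with 19838 bases between them. Muc5ac had 43 and 27 counts in normal lungs and 649 and 41 after OVA. The OVA-induced WT library stood alone, and the other libraries lay at 1.48 to 2.24 CPM. Muc5ac rose 15-fold (11 to 20.9) in WT lungs, while its ratio of OVA-induced to normal in Rab44-KO lungs was 1.42 (0.854 to 2.40), an interval that includes no change. Muc5b had 1072 and 1082 counts in normal lungs and 2753 and 962 after OVA, again with OVA-induced WT alone above the rest. It rose 2.55-fold (2.37 to 2.74) in WT lungs, whereas the ratio in Rab44-KO lungs was 0.832 (0.762 to 0.909). Between the OVA-induced libraries Muc5ac was 15.9-fold lower (11.6 to 22.4) and Muc5b 2.88-fold lower (2.68 to 3.10) in Rab44-KO.

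The balance between these mucins can be read within each library, without scaling. In normal lungs Muc5ac took 3.86% (2.81 to 5.16, exact binomial interval) of the reads of the pair in WT and 2.43% (1.61 to 3.52) in Rab44-KO. After OVA it took 19.1% (17.8 to 20.4) in WT and 4.09% (2.95 to 5.5) in Rab44-KO. Per length Muc5b had the higher level throughout, and Muc5ac made up 24.7% of the summed TPM (scaled by gene length and library total) of the pair in OVA-induced WT lungs and at most 5.60% elsewhere. Muc2 and Muc6, the other gel-forming mucins of this stretch of chromosome 7, showed no such rise in WT. Muc6 had 167 counts in each normal library and 206 and 135 after OVA and stayed within 2-fold in all 4 comparisons, and Muc2 had at most 15 counts in any library.

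**Figure D3:**
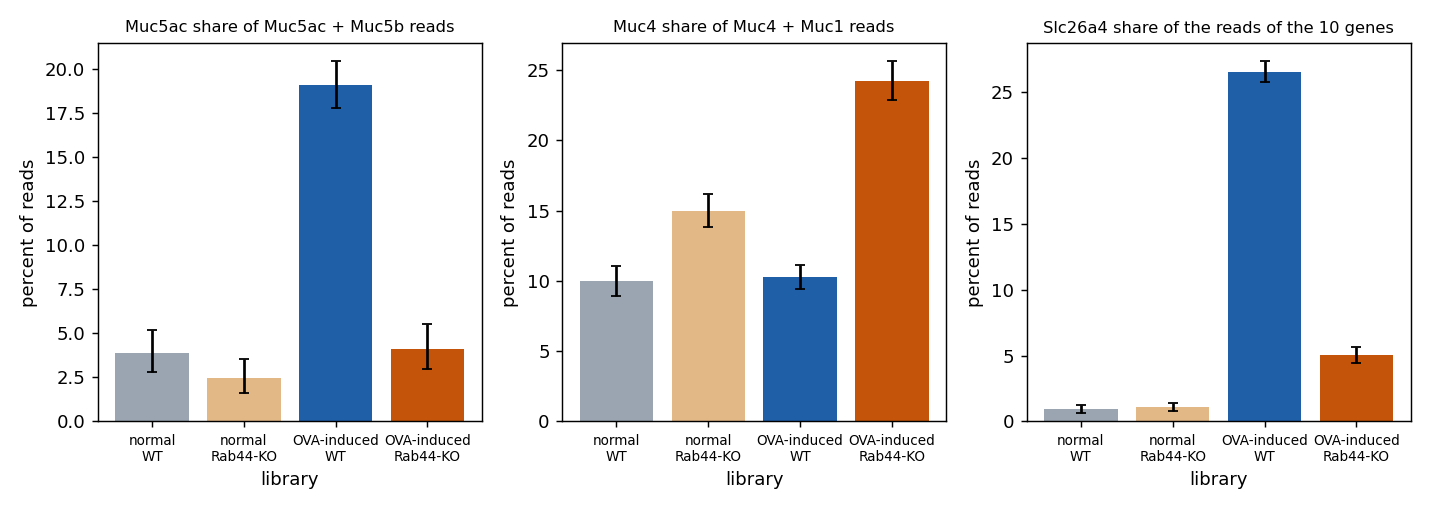
Shares of reads within each library as percentages, with exact 95% binomial intervals as bars, for Muc5ac within Muc5ac and Muc5b, for Muc4 within Muc4 and Muc1, and for Slc26a4 within all 10 mucus genes. OVA-induced WT lungs stand apart for Muc5ac and Slc26a4 at 19.1% and 26.6%, and OVA-induced Rab44-KO lungs for Muc4 at 24.2%.

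Muc1 and Muc4 are membrane mucins, which line the cell surface and do not form gels, and by CPM both stayed within 2-fold in all 4 comparisons. Muc1 (chromosome 3, 89229057 to 89233381) had the highest level per length of the 10 genes in every library, with 156 and 178 TPM in normal lungs and 231 and 175 TPM after OVA. Its counts were 2820 and 3013 in normal lungs and 4764 and 2896 after OVA, highest in OVA-induced WT. The ratio of OVA-induced to normal was 1.68 (1.60 to 1.76) in WT and 0.900 (0.855 to 0.947) in Rab44-KO lungs. Muc1 is also made by alveolar type 2 cells, and 8 markers of these cells summed to 21208.1 and 21245.5 CPM in normal lungs and 30504.5 and 18487.5 CPM after OVA, with none at 0. Sftpc was the largest part of this sum, and in Rab44-KO lungs it had lower CPM after OVA while the median log2 ratio of the 8 was -0.01. Their part in the Muc1 values was not tested.

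Muc4 (chromosome 16, 32735886 to 32782391) ran differently from the other 9. It had 312 and 531 counts in normal lungs and 544 and 926 after OVA, so the Rab44-KO library lay above the WT library in both conditions. The ratio of Rab44-KO to WT was 1.79 (1.55 to 2.07) in normal lungs, the log2 ratio ranking 63 from the top of 13166 genes with at least 100 counts, and 1.69 (1.52 to 1.88) after OVA. That of OVA-induced to normal was 1.73 (1.5 to 1.99) in WT and 1.63 (1.47 to 1.82) in Rab44-KO lungs. None of these passed 2-fold by CPM, although with the trend along gene length removed the log2 ratio of OVA-induced to normal in WT was 1.03 in place of 0.79. By TPM, where the median of all genes was 0.29, the log2 ratio of Rab44-KO to WT after OVA was 1.07 in place of 0.76, and without the length trend it was 0.30. Within the reads of Muc4 and Muc1, Muc4 took 9.96% (8.94 to 11.1) and 15% (13.8 to 16.2) in normal lungs and 10.2% (9.45 to 11.1) and 24.2% (22.9 to 25.6) after OVA. Per length, as shares of the summed TPM, these were 1.95% and 3.07% in normal lungs and 2.01% and 5.44% after OVA, in the same order.

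The deposited table gives Muc4 and Muc6 other Ensembl identifiers than GENCODE M21, from which positions and overlaps are taken by gene symbol, so the counted gene models may differ from those described. Muc20, a neighboring membrane mucin gene on the opposite strand, overlaps Muc4 in the annotation and shares 1.51% of its 150-base windows. Its 171 and 194 counts in normal lungs and 212 and 192 after OVA were nearly level. Muc16, a membrane mucin of airway and mesothelium, had 111 and 166 counts in normal lungs and 227 and 485 after OVA. It rose in both genotypes and was 2.12-fold higher (1.81 to 2.50) in Rab44-KO after OVA. Of 8 mesothelial markers 3 were over 2-fold higher in Rab44-KO among normal lungs, Msln at 2.05, Upk3b at 2.03 and Lrrn4 at 3.19, and none was lower, where 2.77% of all genes were higher. After OVA none of the 8 passed 2-fold between genotypes, where 15.7% of all genes did. Over normal lungs 4 of 8 were over 2-fold higher after OVA in WT and 1 of 8 in Rab44-KO, against 8.99% and 6.44% of all genes. The list summed to 363 and 438 CPM in normal lungs and 494 and 454 CPM after OVA, with none at 0. Their part in the Muc4 and Muc16 values was not tested. Of all 16 genes listed as other mucins and found in the table, among them the adhesion molecule Mcam, 11 reached the minimum in WT. Of these 1 was higher and 2 lower after OVA, against 8.99% and 5.20% of all genes. Both that were lower had under 10 counts after OVA. In Rab44-KO 10 reached the minimum, with 3 higher and none lower, against 6.44% and 3.85%. Of these 3, 1 had under 10 counts in the normal library. After OVA 3 of 10 were over 2-fold higher in Rab44-KO than WT and none lower, against 8.40% and 7.34%, and 1 of the 3 had under 10 counts in WT.

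Agr2 and Tff2, which accompany mucins in the secretory pathway, had higher counts after OVA in WT and lower counts after OVA in Rab44-KO lungs. Agr2 (chromosome 12, 35992907 to 36004087) had 39 counts in each normal library and 177 and 21 after OVA. It rose 4.50-fold (3.17 to 6.54) in WT lungs, and its ratio was 0.504 (0.282 to 0.878) in Rab44-KO lungs, just inside the 2-fold limit. Tff2, a trefoil peptide (chromosome 17, 31141049 to 31144282), had 138 and 118 counts in normal lungs and 389 and 37 after OVA. The normal libraries lay close together, with the OVA-induced libraries on either side of them. Tff2 rose 2.80-fold (2.30 to 3.42) in WT and fell 3.41-fold (2.34 to 5.07) in Rab44-KO lungs, where its log2 ratio ranked 27 from the lowest of 13484 genes with at least 100 counts. Between the OVA-induced libraries Agr2 was 8.49-fold lower (5.38 to 14.1) and Tff2 10.6-fold lower (7.54 to 15.3) in Rab44-KO.

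Itln1, an intelectin lectin that binds microbial sugars (chromosome 1, 171518122 to 171535294), had 0 and 3 counts in normal lungs and 34 and 3 after OVA, so it exceeded 3 counts in OVA-induced WT lungs alone. Taking the floor of 3 counts per library for the 0, it was at least 11.2-fold higher after OVA in WT, and the exact interval of this ratio, which also carries the counting error of the other library, began at 8.65. Between the OVA-induced libraries it was 11.4-fold lower (3.59 to 58.1) in Rab44-KO. The counts in the Rab44-KO libraries allow no fold between them.

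Both goblet cell transcription factors were highest in OVA-induced WT lungs. Spdef (chromosome 17, 27714352 to 27728955) had 37 and 36 counts in normal lungs and 119 and 20 after OVA. It rose 3.19-fold (2.19 to 4.75) in WT lungs, and its ratio was 0.520 (0.285 to 0.923) in Rab44-KO lungs. Foxa3 (chromosome 7, 19013284 to 19023538) had 2 and 5 counts in normal lungs and 32 and 4 after OVA, so OVA-induced WT alone exceeded 5 counts. It rose 15.9-fold (4.05 to 137) in WT lungs, a wide interval that rests on 2 counts in normal WT. Between the OVA-induced libraries Spdef was 5.99-fold lower (3.71 to 10.2) and Foxa3 8.05-fold lower (2.86 to 31.3) in Rab44-KO. Foxa2, a related factor known to restrain mucus genes, had 795 and 601 counts in normal lungs and 678 and 524 after OVA and stayed within 2-fold in all 4 comparisons.

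Slc26a4 (chromosome 12, 31519827 to 31559969) encodes pendrin, which exchanges chloride for other anions at the apical surface of airway cells and is known to be induced by type 2 cytokines. It had 42 and 53 counts in normal lungs and 3426 and 260 after OVA. Among the 10 genes it was the one for which both OVA-induced libraries exceeded both normal libraries in CPM. Slc26a4 rose 80.9-fold (59.7 to 112) in WT lungs, ranking 39 from the top of 13575 genes with at least 100 counts, and 4.59-fold (3.41 to 6.29) in Rab44-KO lungs, ranking 85 of 13484. Its share of all reads of the 10 genes went from 0.932% (0.673 to 1.26) to 26.6% (25.8 to 27.4) in WT and from 1.08% (0.810 to 1.41) to 5.03% (4.45 to 5.66) in Rab44-KO lungs, and as a share of summed TPM from 0.605% to 19.5% and from 0.731% to 3.92%. It was still 13.3-fold lower (11.7 to 15.1) in Rab44-KO between the OVA-induced libraries.

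Airway ionocytes are another cell type specialized for ion transport. Of 6 ionocyte markers, Foxi1 had at most 1 count and Ascl3 at most 3. The list summed to 47.7 and 41.9 CPM in normal lungs and 173 and 51.5 CPM after OVA, and Atp6v0d2, which macrophages also express, gave 3180 of its 3348 counts in OVA-induced WT lungs. Its part in the Slc26a4 values was not tested.

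The OVA response of each gene was then compared between genotypes as the WT ratio over the Rab44-KO ratio, with an interval from the 4 counts. The response was over 2-fold smaller in Rab44-KO for 8 of the 10 genes and over 2-fold larger for none, where 9.14% of 19744 genes were smaller and 8.98% larger. Foxa3 and Itln1, which were under the count minimum in Rab44-KO lungs, are among these 8, and without them it was 6 of 8. For these 6 the counting interval lay wholly beyond 2-fold. The WT response was 17.6 times (11.3 to 27.6) that of Rab44-KO for Slc26a4, 10.5 times (5.63 to 19.4) for Muc5ac, 9.52 times (6.17 to 14.9) for Tff2 and 8.93 times (4.52 to 17.7) for Agr2. It was 6.13 times (3.02 to 12.5) for Spdef, 3.06 times (2.73 to 3.43) for Muc5b and 1.86 times (1.74 to 2.0) for Muc1. Foxa3, with few counts, gave 21.2 (2.25 to 260), and for Itln1 the 0 counts in normal WT leave a lower limit of 3.15. Muc4 gave 1.06 (0.885 to 1.27), an interval that includes equal responses. The intervals of Slc26a4, Muc5ac, Tff2 and Agr2 overlap, so their order is not resolved.

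**Figure D4:**
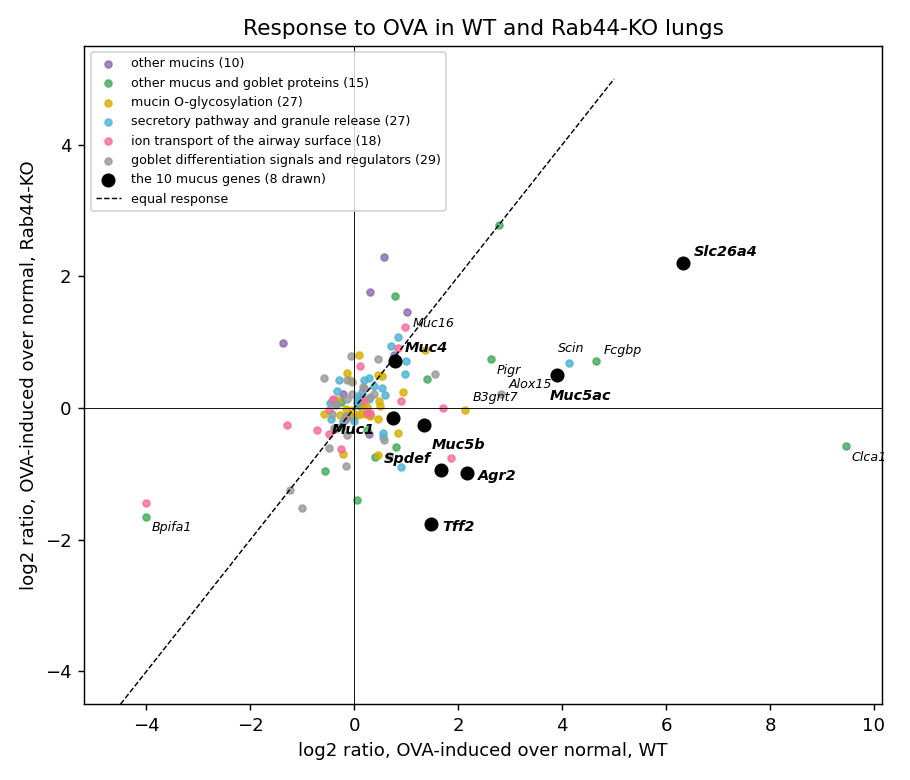
Log2 ratio of OVA-induced over normal lungs in WT (horizontal) and Rab44-KO (vertical), with 1 point per gene, black for the mucus genes and colored for the other listed genes, and a dashed line where both responses are equal. Muc4 sits by the line at 0.79 and 0.71, and the other 7 mucus genes drawn sit below it, Slc26a4 at 6.33 and 2.20.

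Other mucus and goblet proteins included larger changes. Of 24 found in the table, 16 reached the minimum in WT, with 5 over 2-fold higher and 1 lower after OVA, where 8.99% and 5.20% of all genes were. In Rab44-KO 15 reached it, with 2 higher and 2 lower, against 6.44% and 3.85%. Of those higher after OVA, 1 in each genotype had under 10 counts in the normal library. Clca1, a secreted goblet cell protein, had 47 and 108 counts in normal lungs and 33407 and 77 after OVA. Fcgbp, a mucus gel protein, rose 25.2-fold (21.0 to 30.6) in WT, and its ratio was 1.64 (1.28 to 2.12) in Rab44-KO lungs. Pigr, the epithelial receptor that carries IgA into the lumen, rose 6.18-fold (5.75 to 6.66) in WT, with a ratio of 1.67 (1.54 to 1.81) in Rab44-KO lungs. Between the OVA-induced libraries 5 of 16 were over 2-fold lower in Rab44-KO and 2 higher, against 7.34% and 8.40% of all genes. The goblet products Tff1, Tff3 and Retnlb had at most 9 counts in any library.

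Of 34 genes of mucin O-glycosylation, 30 reached the minimum in WT, and 5 were over 2-fold higher and none lower after OVA, against 8.99% and 5.20% of all genes. For 3 of the 5 the normal library had under 10 counts, so that they reached the minimum through the library where they were high. This held for 39.7% of all genes over 2-fold higher. None of 27 passed 2-fold in Rab44-KO lungs, where 10.3% of all genes did. B3gnt7, a glycosyltransferase that extends sugar chains, had 151 and 132 counts in normal lungs and 667 and 138 after OVA. It rose 4.38-fold (3.66 to 5.26) in WT lungs and was level in Rab44-KO at 0.979 (0.765 to 1.25). Gcnt1, which adds a branch to O-glycans, rose 2.57-fold (2.14 to 3.09) in WT, and its ratio was 1.84 (1.55 to 2.19) in Rab44-KO lungs. After OVA 6 of 30 were over 2-fold lower in Rab44-KO than WT and none higher, against 7.34% and 8.40% of all genes, and 3 of the 6 had under 10 counts in Rab44-KO. Gcnt3, a branching enzyme of mucin-secreting tissues, had 14 counts in OVA-induced WT and 0 elsewhere.

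Of 28 genes of the secretory pathway and granule release, 2 were over 2-fold higher and none lower after OVA in WT, a share near the 8.99% of all genes. Of these 2, 1 had under 10 counts in normal WT. After OVA 3 of 28 were over 2-fold lower in Rab44-KO than WT and none higher, where 7.34% of all genes were lower, and 2 of these 3 had under 10 counts in Rab44-KO. Scin, an actin-severing protein of secretory cells, had 18 and 11 counts in normal lungs and 321 and 19 after OVA, and rose 17.7-fold (11 to 30.2) in WT. Ern2, the mucus cell form of the IRE1 stress sensor, had 5 and 8 counts in normal lungs and 34 and 5 after OVA. Of 18 ion transport genes of the airway surface, 2 were over 2-fold higher and 2 lower after OVA in WT, against 8.99% and 5.20% of all genes. Of the 2 lower, 1 had under 10 counts after OVA. The potassium channel Kcnn4 rose 3.26-fold (2.62 to 4.09) and the water channel Aqp3 3.65-fold (2.38 to 5.75) in WT, with ratios of 1.0 (0.755 to 1.33) and 0.588 (0.349 to 0.973) in Rab44-KO lungs. Cftr, the chloride channel of cystic fibrosis, had 163 and 152 counts in normal lungs and 322 and 381 after OVA. Its ratio was 1.96 (1.62 to 2.38) in WT and 2.35 (1.94 to 2.85) in Rab44-KO lungs, so the genotypes lay on either side of the 2-fold limit with overlapping intervals.

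Among signals and regulators of goblet cell differentiation, 5 of 32 were over 2-fold higher and 2 lower after OVA in WT, against 8.99% and 5.20% of all genes, and 3 of the 5 had under 10 counts in normal WT. In Rab44-KO lungs none of 29 was higher and 2 were lower, against 6.44% and 3.85% of all genes. In each genotype 1 of the 2 lower had under 10 counts after OVA. Alox15, a lipoxygenase induced by type 2 cytokines, rose 7.13-fold (5.93 to 8.62) and the alarmin Il33 2.92-fold (2.74 to 3.11) in WT. Their ratios in Rab44-KO lungs were 1.16 (0.935 to 1.45) and 1.43 (1.33 to 1.53). Il13, the cytokine that drives goblet cell metaplasia, had 1 and 0 counts in normal lungs and 13 and 0 after OVA. Stat6, the factor through which IL-13 acts, had 2870 and 2552 counts in normal lungs and 3310 and 3374 after OVA and stayed within 2-fold in all 4 comparisons.

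Markers of other cells are given as summed CPM of a list, in the same pairs. Pan-epithelial genes summed to 920 and 867 in normal lungs and 914 and 818 after OVA, and none of 6 passed 2-fold in any comparison, where 4.77% to 15.7% of all genes did. Club cell genes summed to 28380.8 and 29067.4 in normal lungs and 19951.0 and 23211.4 after OVA, and ciliated cell genes to 1010.1 and 892 in normal lungs and 865 and 823 after OVA, with none of 8 in either list past 2-fold in any comparison, beside the same shares of all genes. Scaled to the pan-epithelial genes, a choice made after seeing the data, the numbers of mucus genes past 2-fold were again 8 upward after OVA in WT and 8 downward in Rab44-KO after OVA, or 6 of 8 each without Foxa3 and Itln1. Under this scaling 1715 of 19023 genes were over 2-fold higher and 953 lower after OVA in WT. Compared with WT after OVA, 1102 of 19259 were over 2-fold lower and 2206 higher in Rab44-KO.

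Among leukocyte markers, those of eosinophils summed to 107 and 103 CPM in normal lungs and 214 and 134 CPM after OVA, and 4 of 7 that reached the minimum were over 2-fold higher after OVA in WT and 1 of 6 in Rab44-KO, against 8.99% and 6.44% of all genes. Of these, 2 in WT and the 1 in Rab44-KO had under 10 counts in the normal library. Compared with WT, 5 of 7 were over 2-fold lower in Rab44-KO after OVA, where 7.34% of all genes were, and 1 of the 5 had under 10 counts in Rab44-KO. T cell markers summed to 55.7 and 53.2 CPM in normal lungs and 104 and 50.5 CPM after OVA, and 4 of 8 were over 2-fold higher after OVA in WT and none in Rab44-KO, against 8.99% and 6.44% of all genes. Compared with WT, 6 of 8 were over 2-fold lower in Rab44-KO after OVA, again beside 7.34% of all genes. The members did not all run alike, since Ear1 of the eosinophil list had 298 counts in normal and 258 in OVA-induced WT lungs, and Gata3 of the T cell list 307 and 232. The eosinophil marker Epx had at most 1 count in any library, and no T cell marker was at 0. Tuft cell markers summed to 9.95 and 10.7 CPM in normal lungs and 25.8 and 17.9 CPM after OVA. Airway basal cell markers summed to 5.83 and 8.55 CPM in normal lungs and 4.34 and 4.26 CPM after OVA. The part of these cells in the mucus values was not tested. Lists of salivary gland and of stomach, where Tff2 and Muc5ac are also made, summed to 9.53 to 13.2 and 7.28 to 11.5 CPM. Of the 9 salivary markers 6 to 7 were at 0 in a library, Dcpp1 and Smr3a in every one, while Amy1 had 135 to 189 counts and Bhlha15 31 to 112. Of the 7 gastric markers 2 to 5 were at 0, Gkn1 in every library, while Muc6 had 135 to 206 counts and Pgc 7 to 38.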

How the data were processed

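Lung RNA of 4 libraries, 1 per condition, was analysed. Reads of 150 bases from both fragment ends are described as trimmed, mapped with HISAT2 on GRCm38 and assigned to genes by featureCounts. Versions and strand setting are not given in the sources used here. The deposited counts are raw whole numbers, and the deposited TPM values are scaled by gene length. Library sizes were scaled by TMM (edgeR 4.0.16, R 4.3.3), with factors of 0.973 to 1.02. Ratios of CPM carry intervals from scipy 1.17.1 that cover counting error only. The 2-fold limit was applied to log2 ratios with a prior count of 0.125, where either library reached 10 counts. No p-value was computed, because 1 library per condition leaves no replicate error. Levels of different genes were compared by TPM, and shares of reads between genes serve only to compare libraries. Positions are from GENCODE M21 on GRCm38, because only 248 of 28949 deposited genes with a matching symbol start at the same base. The build or annotation behind the deposited starts was not resolved. Promoters are from RefSeq on GRCm38.p6.

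The mucus genes and all lists were chosen with earlier results of these data known. Every mucus gene is named. From each list of related genes, up to 5 with the largest log2 ratio after OVA in WT and up to 5 between the OVA-induced libraries, with 100 or more counts in either library, could be named, as could the first 3 markers of each cell type and Rab44. Outside this rule, Muc2, Muc3a, Foxa2, Stat6, Il13, Gcnt3, Ern2, Tff3, Retnlb, Slc5a8, Lrrn4, Ear1, Gata3, Amy1, Bhlha15 and Pgc were named after their values were seen. The result of 1 marker list is not reported here. Alternatives were DESeq2 1.42.0 size factors, total counts, TMM without immunoglobulin genes, TPM with a pseudocount of 0.1, a prior count of 2, count minimums of 1 and 50, intervals wholly beyond 2-fold, and removal of a running median along gene length over 501 genes. Scaling to pan-epithelial genes was a later addition. The steps were tested on simulated counts. Python 3.11.15, numpy 2.4.6, pandas 2.3.3 and matplotlib 3.10.9 were used.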

Additional observations from a re-analysis of the deposited data

Results flagged for a closer look

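For 5 of the 10 mucus genes the OVA responses of the genotypes lay on opposite sides of no change, with counting intervals that excluded no change on both sides. All 5 were higher after OVA in WT and lower in Rab44-KO lungs. The share of all genes that meet this rule is not given here, so the 5 cannot be set against it. Genes with many counts meet the rule at small ratios. The log2 ratios in Rab44-KO lungs were -1.77 for Tff2, -0.98 for Agr2, -0.94 for Spdef, -0.26 for Muc5b and -0.15 for Muc1, against 1.48, 2.17, 1.67, 1.35 and 0.74 in WT lungs. The value of Muc1 in Rab44-KO lungs moved to -0.027 by TPM and -0.067 with pan-epithelial scaling, and that of Muc5b to -0.138 by TPM, so the lower side is slight for Muc1 and depends on the scaling. Muc1 also had genotype ratios on opposite sides, with a log2 ratio of Rab44-KO to WT of 0.17 in normal lungs and -0.73 after OVA. With 1 library per condition these differences were not tested beyond counting error.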

How the results depend on the processing

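The number of mucus genes over 2-fold higher after OVA in WT was 8, and 6 to 9 under the alternatives, lowest with a count minimum of 50, which tests fewer genes, and highest with the length trend removed. The number over 2-fold lower in Rab44-KO after OVA was 8, where 7.34% of all genes were lower, and 6 with the minimum of 50. The number with a smaller response in Rab44-KO was 8 under each alternative run, and in the main setting 9.14% of all genes had one. Foxa3 and Itln1 are among these 8, and without them each main result was 6 of 8. By TPM Muc4 also passed 2-fold after OVA, so 1 gene was higher in Rab44-KO. The median log2 ratio after OVA in Rab44-KO lungs was -0.083 by TPM in place of -0.209. That of all genes was 0.114 in place of -0.008. The cause of these shifts was not tested. A count minimum of 1 let 2 genes, Foxa3 and Itln1, count as higher in Rab44-KO among normal lungs, from 5 counts against 2 and 3 against 0. Of all genes past 2-fold for Rab44-KO over WT after OVA, 53.4% were higher, against 77.0% by TPM and 66.7% with pan-epithelial scaling, and TPM moved the median of all genes from -0.02 to 0.29. For the OVA response the share was 62.6% in Rab44-KO, against 72.8% by TPM, and 63.4% in WT, against 53.6% by TPM. Of 314 values of single mucus genes under an alternative, 293 stayed within the counting interval, 21 left it and 0 turned in direction past 2-fold. The count minimums change no ratio, so the 36 values at a minimum of 1 and the 26 at 50 stayed by construction. Turning was scored only for genes already past 2-fold. No paired analysis was possible because each condition has 1 library. Depth limits Foxa3 and Itln1, with at most 5 counts outside OVA-induced WT lungs.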

Other observations

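Bpifa1, an abundant antimicrobial protein of the upper airways, had 3863 counts in WT and 5575 in Rab44-KO among normal lungs, and 242 and 1892 after OVA. It fell 16.1-fold in WT and 3.15-fold in Rab44-KO lungs, and was 7.77-fold higher (6.79 to 8.92) in Rab44-KO after OVA. Slc5a8, a sodium-coupled carboxylate transporter, had 50 and 56 counts in normal lungs and 3 and 22 after OVA. Muc3a, an intestinal-type membrane mucin, had 32 and 23 counts in normal lungs and 40 and 84 after OVA, a ratio of 2.09 (1.42 to 3.12) of Rab44-KO to WT after OVA.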
